A study of Mus musculus with 12 samples.

Results

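Gene expression was compared between the control cultures of a mouse astrocyte study, the 3 libraries labelled GFP and the 3 labelled shLuc, which make up 6 of its 12 libraries. The members were all libraries that carry these labels. Astrocytes are the star-shaped glia that support neurons, clear glutamate and keep the balance of water and ions in the brain. They arise from radial glia and local progenitors, keep traces of the region they came from, and in culture stand at stages between a dividing immature glial cell and a mature one. Cultures made from newborn cortex also carry some microglia, oligodendrocyte precursors, ependymal cells and cells of the vessels and meninges, so that controls prepared apart can differ in cell mix as well as in state.

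All groups came from the cortex of wild-type C57BL/6J mice on postnatal day 3. The cells were grown in serum to confluence, purified, replated and transduced, and then kept in serum-free medium before total RNA was taken. The GFP libraries are the control of an overexpression experiment, in which other cultures received a virus for GADD45G. The shLuc libraries are the control of a knockdown experiment, in which other cultures received an shRNA against Gadd45g (shGADD45G). No library of untransduced cells was among them. Whether replicates came from separate cultures is not said in the labels, and the p-values reflect only the spread among these 6 libraries, which can be technical. The experiment, its table and its virus are the same split as the groups, so these and the cultures themselves cannot be told apart as sources of any difference given here. Levels are given in CPM, counts scaled together to a common library total, and a gene was called when edgeR's quasi-likelihood test gave a Benjamini-Hochberg adjusted p under 0.05. Log2 fold changes are GFP minus shLuc.

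Libraries held 19480657 to 20756461 counts in the GFP group and 16179509 to 18970492 in the shLuc group. Mitochondrial genes took 2.02 to 2.04% of counts in GFP libraries and 2.09 to 2.20% in shLuc libraries, and the 100 most abundant genes took 16.4% in GFP libraries and 18.5 to 18.6% in shLuc libraries. Replicates of both controls were close, and a chi-square of 1 library against another, divided by its degrees of freedom, gave 2.11 to 3.15 in GFP and 2.23 to 2.98 in shLuc, where 1 is counting error. On the first principal component of all 12 libraries, with 48.3% of the variance, the 3 GFP libraries lay at 83.9 to 84.5 and the shLuc libraries at -24.4 to -23.3. The GADD45G libraries lay at -40.0 to -35.4 and the shGADD45G libraries at -23.2 to -21.1, so the GFP libraries stood alone on one side. The root mean square log2 difference between group means over 15900 genes was 0.95 for GFP and shLuc, 1.02 for GADD45G and GFP, and 0.90 for GFP and shGADD45G. It was 0.71 for GADD45G and shLuc, 0.49 for shGADD45G and shLuc and 0.61 for GADD45G and shGADD45G. Each of the 3 distances that involve GFP was larger than each of those that do not.

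**Figure D1:**
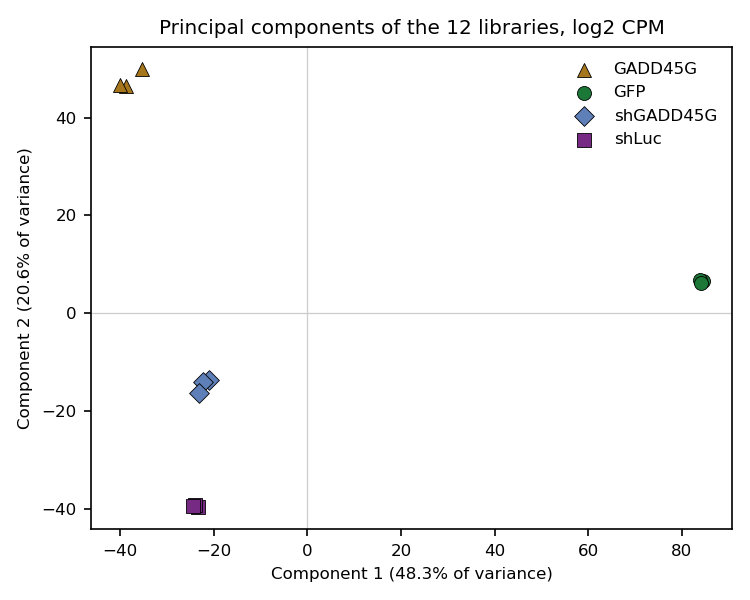
First and second principal components of log2 CPM in all 12 libraries, 3 per group, with one point per library. The GFP libraries lie at 83.9 to 84.5 on the first component and the other 9 libraries lie between -40.0 and -21.1.

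The controls differed in most genes. Of 15357 genes tested, 10315 were called (67.2%), 5177 higher in GFP libraries (33.7%) and 5138 lower (33.5%). Of these, 1464 were at least 2-fold higher (9.53%) and 1439 at least 2-fold lower (9.37%). All GFP libraries were above all shLuc libraries in 5392 genes (35.1%) and below them in 5354 (34.9%). The median log2 fold change over all tested genes was -5.86e-05, and the median absolute value was 0.35. For scale, the same steps on the same joined genes called 9282 of 15403 genes between GADD45G and GFP libraries (60.3%) and 1554 of 14914 between shGADD45G and shLuc libraries (10.4%). The median absolute log2 fold changes were 0.36 and 0.18 in those comparisons, which share their control libraries with the one described here. Replicates spread more in the treated groups. The same chi-square was 4.23 to 16.04 in GADD45G and 20.47 to 41.04 in shGADD45G libraries. The median SE was 0.131 for shGADD45G and shLuc, 0.084 for GADD45G and GFP and 0.076 for GFP and shLuc. The numbers of called genes therefore reflect replicate spread as well as size of difference. Small folds were split evenly between directions, and large ones were not. Among the 15289 tested genes with more than 3 counts over each group, 1404 were called at least 2-fold higher in GFP and 1431 at least 2-fold lower. At 4-fold the numbers were 474 higher and 395 lower, at 8-fold 204 and 65, at 16-fold 87 and 10, at 32-fold 46 and 0, and at 64-fold 21 and 0.

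**Figure D2:**
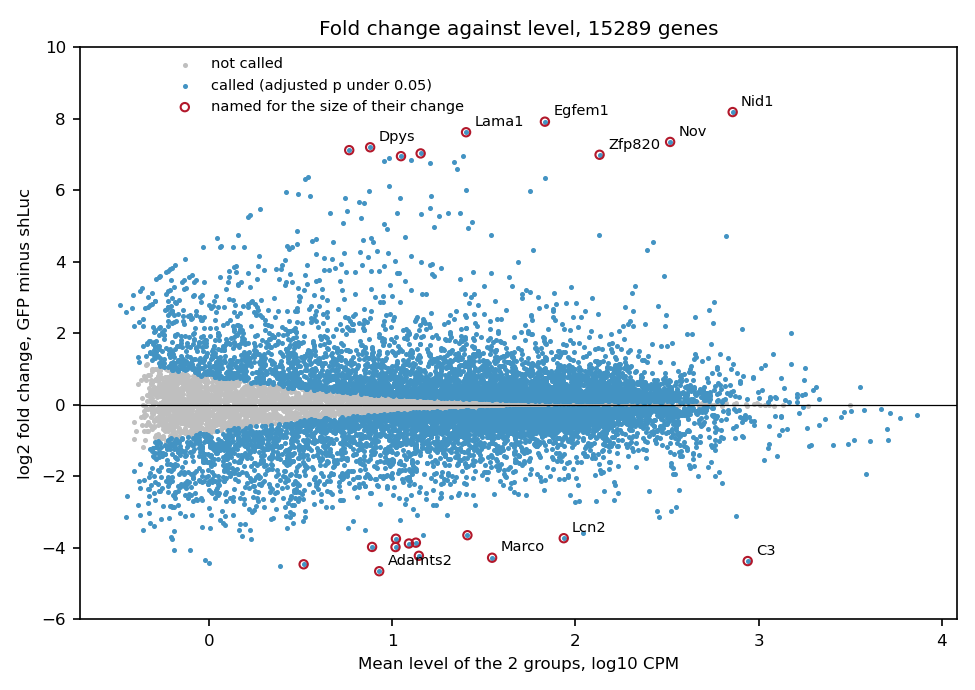
Log2 fold change, GFP minus shLuc, against the mean level of both groups (log10 CPM) for 15289 genes with more than 3 counts over each group, with one point per gene. Genes reach log2 fold changes above 6 on the GFP side and stay above -5 on the shLuc side, and circles mark genes named for the size of their change.

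Nid1, Nov, Lama1 and Egfem1, all secreted or matrix proteins, were among the 12 genes with the largest differences on the GFP side. Nid1 encodes nidogen 1, which links the laminin and collagen IV networks of basement membranes, and lies at chr13:13437551-13512269, plus strand (mm10). It stood at 1456, 1412 and 1448 CPM in the GFP libraries, against 4.82, 5.05 and 4.98 CPM in the shLuc libraries (log2 fold change 8.18, SE 0.04, adjusted p = 9.5e-49). On the joint scale of all libraries it stood at 3.32, 4.88 and 24.7 CPM in the GADD45G libraries and 8.88, 9.36 and 8.60 CPM in the shGADD45G libraries. The GFP libraries were therefore far above the other 9 libraries for this gene, including the GADD45G libraries, which share a table with GFP.

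Nov (also Ccn3), a secreted matricellular protein of the CCN family at chr15:54745702-54754039, plus strand, had 639.7, 662 and 659 CPM in the GFP libraries, against 4.32, 3.98 and 3.76 CPM in the shLuc libraries (log2 fold change 7.34, SE 0.05, adjusted p = 2.7e-45). Lama1, the alpha 1 chain of laminin 111, had 53.6, 45.6 and 51.7 CPM in the GFP libraries, against 0.250, 0.213 and 0.289 CPM in the shLuc libraries (log2 fold change 7.62, SE 0.16, adjusted p = 8.8e-31). Egfem1, a predicted EGF-like repeat protein, had 138, 135 and 134 CPM in the GFP libraries, against 0.501, 0.425 and 0.752 CPM in the shLuc libraries (log2 fold change 7.91, SE 0.10, adjusted p = 1.6e-37). Genes named for size were picked among those whose groups did not overlap, so that separation was set by the choice. In GADD45G libraries Nov, Lama1 and Egfem1 averaged 7.99 ± 0.124, 2.15 ± 1.28 and 0.363 ± 0.107 CPM (SD, n = 3).

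Zfp820, a zinc finger gene at chr17:21816885-21845772, minus strand, had 282, 263 and 260.4 CPM in the GFP libraries, against 2.32, 1.65 and 2.43 CPM in the shLuc libraries (log2 fold change 6.99, SE 0.07, adjusted p = 7.1e-40). Its levels elsewhere were 2.91 ± 1.08 CPM in GADD45G libraries and 3.53 ± 0.579 CPM in shGADD45G libraries (SD, n = 3 each). Zinc finger genes of this kind, like Cyp2j13, Ifit3 and the H2 genes below, belong to families with close copies, and their values are uncertain because the sources used here do not say how reads shared between copies were counted. The other genes named for size on this side were Prokr2, Asxl3 and Cyp2j13, which had 0 to 2 counts over shLuc, and Dpys, Stum, Lin7a and Sprn, with log2 fold changes of 7.20, 7.12, 7.02 and 6.95.

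The largest differences on the shLuc side were smaller, and C3, Lcn2 and Marco were among them. C3, the central component of complement, lies at chr17:57203970-57228136, minus strand. It had 84.1, 80.4 and 75.7 CPM in the GFP libraries, against 1653, 1644 and 1693 CPM in the shLuc libraries (log2 fold change -4.38, SE 0.03, adjusted p = 2.5e-44). Lcn2, lipocalin 2, an iron-siderophore binding protein that reactive astrocytes secrete, had 12.9, 11.03 and 12.2 CPM in the GFP libraries, against 162, 161 and 159 CPM in the shLuc libraries (log2 fold change -3.74, SE 0.05, adjusted p = 1.4e-35). Both genes were lower in every GFP library than in every shLuc library, as the choice of genes for size required. Marco, a scavenger receptor of macrophages, had 3.42, 4.11 and 2.73 CPM in the GFP libraries, against 64.2, 74.8 and 61.2 CPM in the shLuc libraries (log2 fold change -4.28, SE 0.10, adjusted p = 3.1e-29). Here the shLuc libraries stood apart from the others, since Marco averaged 3.30 ± 1.69 CPM in GADD45G libraries and 5.92 ± 3.38 CPM in shGADD45G libraries (SD, n = 3 each). C3 and Lcn2 did not share that order, at means of 2089.9 ± 75.4, 80.0 ± 4.20, 1402 ± 616 and 1657 ± 24.0 CPM and 427 ± 26.0, 12.03 ± 0.920, 185 ± 123 and 159.9 ± 1.72 CPM (± SD, n = 3) in GADD45G, GFP, shGADD45G and shLuc libraries in that order.

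Adamts2, a procollagen N-propeptidase, had the lowest log2 fold change among the genes named for size (log2 fold change -4.66, SE 0.19, adjusted p = 4.4e-22), with 0.511, 0.382 and 1.02 CPM in the GFP libraries, against 15.4, 16.3 and 17.3 CPM in the shLuc libraries. Bmp3, a ligand of the BMP family, had 2.30, 1.15 and 1.75 CPM in the GFP libraries, against 26.1, 23.7 and 25.6 CPM in the shLuc libraries (log2 fold change -3.86). Adra2a, the alpha 2A adrenergic receptor, had 3.12, 3.58 and 4.63 CPM in the GFP libraries, against 43.6, 49.7 and 49.5 CPM in the shLuc libraries (log2 fold change -3.65). That the groups did not overlap in any of them was again set by the choice. Als2cl, Ppp1r1b, Tmie, C1ql1 and Icosl were also among the 12, with log2 fold changes of -4.23, -3.99, -3.98, -3.89 and -3.75.

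A set of genes was counted in GFP libraries and barely or not at all in shLuc libraries. Of the 22845 joined genes, 47 had at least 60 counts over the GFP group and at most 3 over the shLuc group (0.206%), and 0 had the opposite pattern (0.0%). Of the 47, 38 are protein coding, against 16241 of the 22845 joined genes, and 9 had 0 counts in all shLuc libraries. They lay on 18 chromosomes, with at most 7 on one. The number moved with single libraries, to 29 without GFP library 3, 30 without GFP library 1 and 77 without shLuc library 1, and the opposite count was 2 to 5 without one GFP library. Prokr2, a receptor for prokineticins, had 974 counts over the 3 GFP libraries and 0 over the 3 shLuc libraries, at least 277-fold higher. Myt1, a zinc finger factor of neural differentiation, had 282 counts over the 3 GFP libraries and 0 over the 3 shLuc libraries, at least 80.2-fold higher. Ugt8a, which makes the galactosylceramide of myelin, had 269 counts over the 3 GFP libraries and 0 over the 3 shLuc libraries, at least 76.5-fold higher. These bounds set 0 counts at a floor of 3 counts over the group and cover counting error only.

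Several of the 47 are textbook neuronal genes, picked out here after their values were seen. Gad2, a GABA-synthesizing enzyme, had 181 counts over the GFP libraries and 2 over the shLuc libraries, 77.2 times as much, with a 95% interval from counting of 21.1 to 642. Calb2, the calcium-binding protein calretinin of some interneurons, had 165 counts over the GFP libraries and 3 over the shLuc libraries, 46.9 times as much, with a 95% interval from counting of 15.8 to 229.9. Scrt1, a transcriptional repressor of newborn neurons, had 175 counts over the GFP libraries and 2 over the shLuc libraries, 74.7 times as much, with a 95% interval from counting of 20.4 to 621. Stmn4, a neuronal stathmin, had 151 counts over the GFP libraries and 3 over the shLuc libraries, 42.9 times as much, with a 95% interval from counting of 14.4 to 211. H2-Aa, a chain of MHC class II, was also on the list, with 102 counts over the 3 GFP libraries and 0 over the 3 shLuc libraries, at least 29.0-fold higher. Of the 47 genes, 20 also had at most 3 counts over the GADD45G libraries and 30 over the shGADD45G libraries. The matching share of all joined genes was not counted, so these numbers are not read as a trait of the 47.

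Both controls carried astrocyte markers at high level, so all 6 libraries bore out the labelled cell type. All 16 genes of the astrocyte identity list were tested, and 5 passed the test as higher in GFP libraries, 11 as lower and 0 did not pass. Read against 33.7% and 33.5% of all tested genes, the lower calls were the more frequent. Of the 16, 8 were at least 2-fold lower, against 9.37% of all tested genes. The median log2 fold change was -0.95, against -5.86e-05 over all tested genes. The summed level of the list was 7534 to 7628 CPM in the GFP libraries, against 15048 to 15578 CPM in the shLuc libraries. In bulk RNA, fewer cells of a type and less RNA per cell cannot be told apart.

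Gfap, the intermediate filament of astrocytes, had 229, 224 and 226 CPM in the GFP libraries, against 1048, 1035 and 1045 CPM in the shLuc libraries (log2 fold change -2.20, SE 0.03, adjusted p = 8.5e-38). Apoe, the main lipid carrier made by astrocytes, had 1607, 1594 and 1590.2 CPM in the GFP libraries, against 6268, 6269.6 and 5833 CPM in the shLuc libraries (log2 fold change -1.94). Sox9, a glial fate factor, had 192, 196 and 201 CPM in the GFP libraries, against 629, 651 and 629 CPM in the shLuc libraries (log2 fold change -1.70). All 3 genes were lower in every GFP library than in every shLuc library. Gja1, which encodes the gap junction protein connexin 43, had a log2 fold change of -1.73, Fgfr3 of -1.35 and S100b of -1.07. The list was not uniform. Aldh1l1, a folate enzyme widely used as a pan-astrocyte marker, had 385, 382 and 386 CPM in the GFP libraries, against 289.9, 281 and 282 CPM in the shLuc libraries (log2 fold change 0.43, SE 0.03, adjusted p = 1.0e-15). Nfib, Nfia, Glul and Slc1a3 were also higher, with log2 fold changes of 0.43, 0.32, 0.25 and 0.15. The call for Slc1a3, a glutamate transporter, was lost with all 12 libraries in one fit (adjusted p = 0.185).

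Genes of mature astrocytes showed the same mixed picture. Of 24 genes, 22 were tested, of which 7 passed the test as higher in GFP libraries, 15 as lower and 0 did not pass, with 3 at least 2-fold higher and 10 at least 2-fold lower and a median of -0.81. Over all tested genes, 33.7% were called higher and 33.5% lower, with 9.53% at least 2-fold higher and 9.37% at least 2-fold lower. The summed level of the list was 5053 to 5109 CPM in the GFP libraries, against 6603 to 6668 CPM in the shLuc libraries. Aqp4, the water channel of astrocyte endfeet, had 118, 115 and 119 CPM in the GFP libraries, against 613, 604 and 633 CPM in the shLuc libraries (log2 fold change -2.40, SE 0.03, adjusted p = 3.7e-37). Pla2g7, a secreted phospholipase that degrades platelet-activating factor, had 163, 158 and 151 CPM in the GFP libraries, against 1351, 1352 and 1364 CPM in the shLuc libraries (log2 fold change -3.11). In both genes no GFP library came near the shLuc range. Slc1a2, the main glutamate transporter of mature astrocytes, was lower by a smaller step (log2 fold change -0.83).

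Against that direction went Aldoc, Sparcl1 and Slc6a11. Aldoc, the brain aldolase, had 1472, 1496 and 1464 CPM in the GFP libraries, against 695, 691 and 684 CPM in the shLuc libraries (log2 fold change 1.10, SE 0.02, adjusted p = 3.8e-30). Sparcl1, a secreted synaptogenic protein, had 287, 272 and 274 CPM in the GFP libraries, against 148, 147 and 147 CPM in the shLuc libraries (log2 fold change 0.91). Slc6a11, the GABA transporter GAT-3, had 7.92, 8.64 and 8.58 CPM in the GFP libraries, against 0.313, 0.638 and 0.868 CPM in the shLuc libraries (log2 fold change 3.76). Aldoc averaged 316 ± 25.2, 1476 ± 18.6, 579 ± 165 and 687 ± 6.80 CPM and Gfap 1180.4 ± 79.3, 226 ± 1.93, 829 ± 78.8 and 1038 ± 7.19 CPM (± SD, n = 3) in GADD45G, GFP, shGADD45G and shLuc libraries, in that order, so GFP was the highest group for Aldoc and the lowest for Gfap. Gjb6 and Slc7a10, found in adult astrocytes, were under the level for testing in both controls.

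Progenitor genes moved in both directions. Of 18 genes, 17 were tested, of which 10 passed the test as higher in GFP libraries, 7 as lower and 0 did not pass, and 7 were at least 2-fold higher and 2 at least 2-fold lower (median 0.55). For comparison, 33.7% of all tested genes were called higher, 33.5% lower, 9.53% at least 2-fold higher and 9.37% at least 2-fold lower. Egfr, the EGF receptor of activated progenitors, had 227, 201 and 216 CPM in the GFP libraries, against 54.6, 54.6 and 60.7 CPM in the shLuc libraries (log2 fold change 1.92, SE 0.05, adjusted p = 3.8e-29). Dll1, a Notch ligand made by cells leaving the progenitor pool, had 19.6, 15.7 and 18.3 CPM in the GFP libraries, against 2.19, 2.92 and 1.39 CPM in the shLuc libraries (log2 fold change 3.02). Every GFP library was above every shLuc library for these genes.

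Fabp7, Prom1 and Sox21 followed with log2 fold changes of 1.57, 1.46 and 1.14. Sox2 went the other way, at 157, 157 and 152 CPM in the GFP libraries, against 533, 533 and 513 CPM in the shLuc libraries (log2 fold change -1.76, SE 0.03, adjusted p = 2.4e-33). Sox1 was also lower (log2 fold change -1.12). Nes, the intermediate filament nestin, differed little (log2 fold change 0.14, SE 0.03, adjusted p = 3.8e-04), and its call was lost with all 12 libraries in one fit (adjusted p = 0.422). Its means were 1379 ± 149.8, 302 ± 15.6, 290.2 ± 77.4 and 273 ± 3.25 CPM (± SD, n = 3) in GADD45G, GFP, shGADD45G and shLuc libraries, in that order. Hes5, a Notch effector of radial glia, had 21 counts over the GFP libraries and 0 over the shLuc libraries, and was under the level for testing.

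Most tested genes that mark the ventral forebrain were higher in the GFP libraries, while the summed level of the list, in which Meis2 was the largest member, was lower. The dorsal forebrain gives rise to cortex and its glutamatergic neurons, and the ventral forebrain to striatum and GABAergic interneurons. Of 20 ventral genes, 12 were tested, of which 8 passed the test as higher in GFP libraries, 2 as lower and 2 did not pass, and the 8 higher members were all at least 2-fold higher, against 9.53% of all tested genes. The summed level of the list was 377 to 385 CPM in the GFP libraries, against 409 to 419 CPM in the shLuc libraries. Its median log2 fold change was 2.81, and 1.82 to 2.85 across the alternative settings, lowest without a filter on low counts. A member low in shLuc entered the test through its GFP level, so these counts and medians describe the members that could be tested. Dlx1, a homeobox factor of GABAergic progenitors, had 34.2, 35.1 and 34.7 CPM in the GFP libraries, against 3.13, 2.28 and 1.97 CPM in the shLuc libraries (log2 fold change 3.82, SE 0.11, adjusted p = 4.6e-26). Dlx2, its neighbour and partner on chromosome 2, had 25.3, 28.1 and 25.2 CPM in the GFP libraries, against 6.01, 5.31 and 6.25 CPM in the shLuc libraries (log2 fold change 2.16). Gsx2, which patterns the lateral ganglionic eminence, had 5.93, 6.16 and 5.21 CPM in the GFP libraries, against 0.313, 0.159 and 0.289 CPM in the shLuc libraries (log2 fold change 4.49). These groups lay well apart, although levels in shLuc were low.

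Gsx1, Sp9, Sp8 and Gad1 had log2 fold changes of 4.40, 4.43, 3.46 and 1.48, and Gad2 was the eighth. Meis2, a TALE homeobox factor of the striatal lineage, had 185, 185 and 180.3 CPM in the GFP libraries, against 286, 282 and 292 CPM in the shLuc libraries (log2 fold change -0.64), and went against the list. Its step down was larger than that of the summed level, so without Meis2 the sum would be higher in the GFP libraries. Six3 and Vax1 did not pass, although Six3 was called lower without shLuc library 3. Nkx2-1 and Lhx6, of the medial ganglionic eminence, were under the level for testing. The mean log2(CPM + 1) of the tested members was 2.37, 3.68, 2.31 and 2.31 in GADD45G, GFP, shGADD45G and shLuc libraries, in that order. Members that were tested only for their GFP level raise the GFP mean by the way they were chosen, so no order between the groups is read from it.

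Dorsal genes were present in both controls. Their summed level was 476 to 485 CPM in the GFP libraries, against 404 to 430 CPM in the shLuc libraries. Of 16 genes, 8 were tested, of which 4 passed the test as higher in GFP libraries, 1 as lower and 3 did not pass, against 33.7% higher and 33.5% lower of all tested genes. The median was 0.44, and 0.23 without GFP library 1. Fezf2, a factor of deep-layer cortical neurons and early dorsal progenitors, had 47.1, 49.2 and 47.6 CPM in the GFP libraries, against 13.6, 13.3 and 11.7 CPM in the shLuc libraries (log2 fold change 1.90, SE 0.07, adjusted p = 6.6e-23). Lhx2, a selector of cortical identity, had 196, 195 and 195 CPM in the GFP libraries, against 143, 158 and 144 CPM in the shLuc libraries (log2 fold change 0.40), and Emx2 a log2 fold change of 0.50. All 6 libraries therefore held dorsal transcripts. Emx1 and Tbr1 were under the level for testing.

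Caudal patterning genes of midbrain, hindbrain and diencephalon were mostly low in both controls. Of 34 genes, 18 were in both tables and 11 were tested, of which 3 passed the test as higher in GFP libraries, 4 as lower and 4 did not pass (median -0.0027, and -0.17 to 0.22 without one library, on either side of 0). These counts were near the shares of all tested genes, 33.7% higher and 33.5% lower. Tcf7l2 and Otx1 were lower, with log2 fold changes of -0.57 and -0.52. Pax2 stood at 0.511, 0.764 and 0.536 CPM in the GFP libraries, against 1.88, 2.34 and 2.31 CPM in the shLuc libraries (log2 fold change -1.84). En2 and Lmx1a were higher (log2 fold changes 2.35 and 0.88). Gbx2, a hindbrain and thalamic factor, had 139 counts over the GFP libraries and 3 over the shLuc libraries, 39.5 times as much, with a 95% interval from counting of 13.2 to 194. Gbx2 entered the test through its GFP level, so the count and the median describe the tested members alone. Hoxb4, the one Hox gene of the list in both tables, had 0 counts in GFP libraries and 1 in shLuc libraries.

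Most tested neuronal transcripts were higher in the GFP libraries. Of 19 genes, 12 were tested, of which 10 passed the test as higher in GFP libraries, 1 as lower and 1 did not pass, with 7 at least 2-fold higher and 0 at least 2-fold lower, against 33.7% higher and 9.53% at least 2-fold higher of all tested genes. The median log2 fold change was 1.57, and 1.04 to 2.06 across the alternative settings. As with the ventral list, members near 0 in shLuc, such as Elavl4 and Dcx, entered the test through their GFP level, so the count and the median describe the tested members alone. Dcx, the microtubule protein doublecortin of migrating young neurons, had 33.3, 31.8 and 30.8 CPM in the GFP libraries, against 0.250, 0.266 and 0.347 CPM in the shLuc libraries (log2 fold change 6.76, SE 0.17, adjusted p = 1.4e-28). Elavl4, an RNA-binding protein of neurons, had 6.08, 7.11 and 7.46 CPM in the GFP libraries, against 0.0626, 0.159 and 0 CPM in the shLuc libraries (log2 fold change 6.37). Syn1, the synaptic vesicle protein synapsin 1, had 30.7, 29.1 and 30.6 CPM in the GFP libraries, against 1.56, 2.497 and 1.85 CPM in the shLuc libraries (log2 fold change 3.91). The GFP libraries differed little among themselves for these genes and lay far above each shLuc library.

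Elavl3, Ina and Tubb3 had log2 fold changes of 3.72, 3.70 and 2.11. Stmn2 was abundant in both groups, at 178, 172 and 172 CPM in the GFP libraries, against 86.2, 83.9 and 85.2 CPM in the shLuc libraries (log2 fold change 1.03). Map2, which astrocyte cultures also express, was lower by little (log2 fold change -0.08, adjusted p = 0.0304), a call lost with all 12 libraries in one fit (adjusted p = 0.408), by DESeq2 and without GFP library 2, GFP library 3 or shLuc library 3, and Gap43 did not pass. Markers of mature neurons were scarce. Rbfox3, Nefm and Slc17a7 were under the level for testing in both controls. Summed over the list, neuronal transcripts stood at 560.0 to 583 CPM in the GFP libraries, against 366 to 391 CPM in the shLuc libraries. The mean log2(CPM + 1) of the tested members was 2.44, 4.24, 2.38 and 2.56 in GADD45G, GFP, shGADD45G and shLuc libraries, in that order, a mean that the same choice of members raises in GFP.

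**Figure D3:**
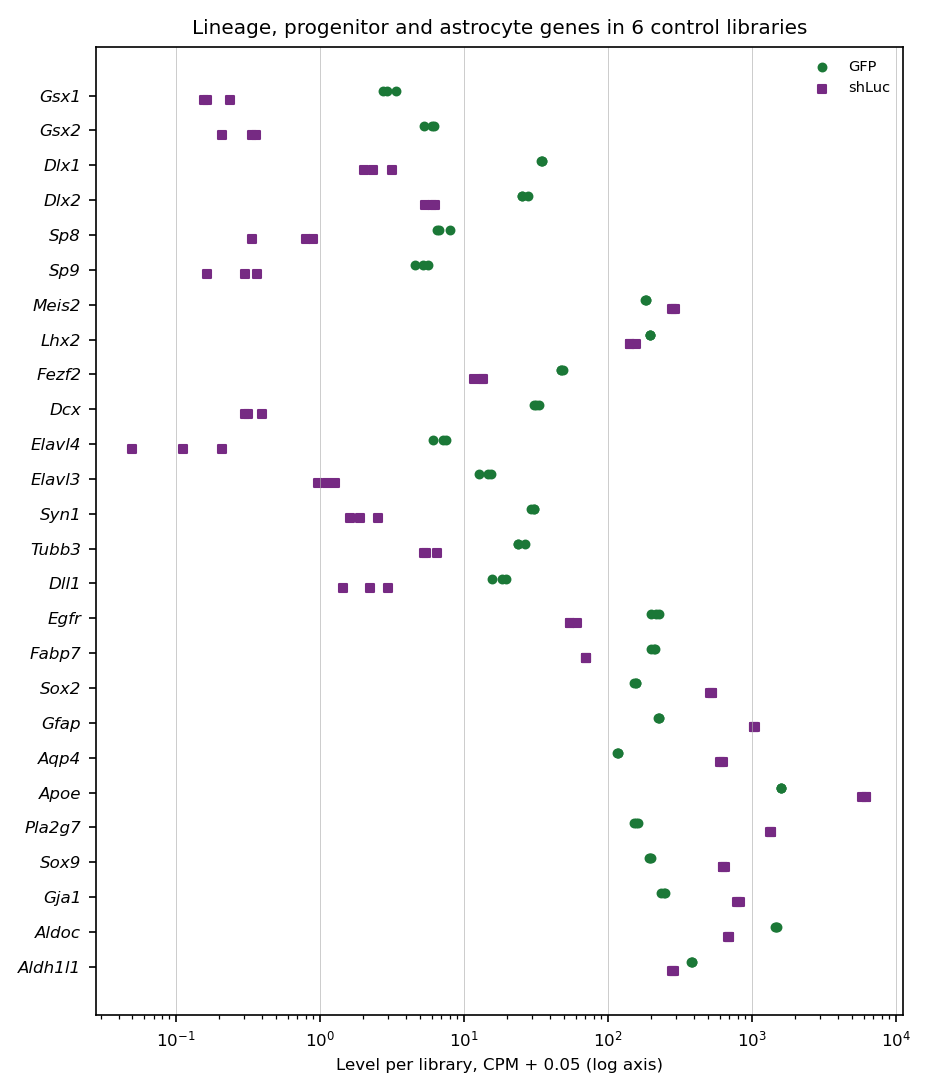
Level of 26 regional, neuronal, progenitor and astrocyte genes in each of the 3 GFP libraries (circles) and 3 shLuc libraries (squares), as CPM + 0.05 on a log axis. Gsx1 to Sp9, Dcx to Tubb3 and Dll1 to Fabp7 lie further right in GFP libraries, and Sox2 and Gfap to Gja1 lie further right in shLuc libraries.

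Genes of the oligodendrocyte lineage moved in both directions, and their summed level was higher in the GFP libraries. Of 18 genes, 10 were tested, of which 4 passed the test as higher in GFP libraries, 4 as lower and 2 did not pass (median -0.32, and -0.20 without shLuc library 1). For comparison, 33.7% of all tested genes were called higher, 33.5% lower, 9.53% at least 2-fold higher and 9.37% at least 2-fold lower. All 4 higher calls were at least 2-fold, against 1 of the 4 lower calls. Summed over the list, the level was 677 to 688 CPM in the GFP libraries, against 258 to 259 CPM in the shLuc libraries. Pdgfra and Mbp, the higher members named below, make up little of that sum, so it does not describe the list as a whole. Pdgfra, the receptor that marks oligodendrocyte precursors, had 9.40, 9.64 and 9.75 CPM in the GFP libraries, against 0.939, 1.01 and 1.16 CPM in the shLuc libraries (log2 fold change 3.20, SE 0.18, adjusted p = 9.2e-18). In the treated cultures Pdgfra stood at 2.49, 3.06 and 22.4 CPM in the GADD45G libraries and 0.487, 0.746 and 1.97 CPM in the shGADD45G libraries, where a single GADD45G library was high. Olig1 and Cspg4 were lower (log2 fold changes -0.54 and -1.39), and Olig2 did not pass, at 11.8, 11.8 and 11.5 CPM in the GFP libraries, against 13.3, 12.6 and 11.6 CPM in the shLuc libraries. Mbp, the myelin basic protein, had 2.09, 2.48 and 1.85 CPM in the GFP libraries, against 0.939, 1.43 and 0.579 CPM in the shLuc libraries (log2 fold change 1.10), and Mog, Mag and Gpr17 were under the level for testing.

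Genes of motile cilia, which ependymal cells use to move cerebrospinal fluid, were lower in the GFP libraries. All 23 were tested, of which 2 passed the test as higher in GFP libraries, 20 as lower and 1 did not pass, with 10 at least 2-fold lower, against 33.5% lower and 9.37% at least 2-fold lower of all tested genes. The median was -0.90. Foxj1, the master regulator of motile cilia, had 257, 263 and 262 CPM in the GFP libraries, against 694, 707 and 664 CPM in the shLuc libraries (log2 fold change -1.40, SE 0.03, adjusted p = 7.8e-31). Cfap126, a ciliary protein whose other name is Flattop, had 19.1, 17.1 and 16.6 CPM in the GFP libraries, against 56.6, 60.1 and 60.7 CPM in the shLuc libraries (log2 fold change -1.75). Rfx2 and Rfx3, factors that drive ciliary genes, had log2 fold changes of -0.90 and -0.51. The exceptions were Dnah9, a heavy chain of axonemal dynein, and Gmnc, which starts the multiciliated program, with log2 fold changes of 1.21 and 0.29. The call for Gmnc was lost with all 12 libraries in one fit (adjusted p = 0.103). Together the listed genes stood at 881 to 900.5 CPM in the GFP libraries, against 1512 to 1526 CPM in the shLuc libraries.

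Microglia and macrophage markers were higher in the shLuc libraries. Of 21 genes, 19 were tested, of which 0 passed the test as higher in GFP libraries, 17 as lower and 2 did not pass. Of the 17 lower members 16 were at least 2-fold lower, against 9.37% of all tested genes, and the median was -1.88. Cx3cr1, the fractalkine receptor of microglia, had 7.87, 7.45 and 8.53 CPM in the GFP libraries, against 31.3, 30.02 and 26.6 CPM in the shLuc libraries (log2 fold change -1.88, SE 0.09, adjusted p = 1.5e-19). Csf1r, the receptor on which microglia depend for survival, had 6.18, 6.64 and 6.19 CPM in the GFP libraries, against 25.8, 33.3 and 24.9 CPM in the shLuc libraries (log2 fold change -2.15). Tmem119, a marker of resident microglia, had 1.63, 1.38 and 1.27 CPM in the GFP libraries, against 8.07, 10.1 and 9.03 CPM in the shLuc libraries (log2 fold change -2.67). None of these groups overlapped.

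Ptprc, Itgam and Aif1, which encode CD45, CD11b and IBA1, had log2 fold changes of -2.30, -2.61 and -2.07. Trem2, a receptor of microglia, did not pass (log2 fold change -0.34), although it was called lower without GFP library 1. The summed level of the list was 250.1 to 258 CPM in the GFP libraries, against 609 to 700.3 CPM in the shLuc libraries, and no defining marker was at 0 in either group. With all 12 libraries in one fit, 12 members were called lower, and the calls for Lyz2, Cd68, Ctss, P2ry12 and Tyrobp were lost, with adjusted p-values of 0.0681, 0.105, 0.108, 0.156 and 0.22. The mean log2(CPM + 1) of the tested members was 2.51, 2.87, 2.49 and 4.32 in GADD45G, GFP, shGADD45G and shLuc libraries, in that order, so by this mean shLuc stood above the other 3 groups. The summed level did not keep that order in every library. On the joint scale of all libraries the sum ran from 108 to 757 CPM in GADD45G libraries and from 605 to 697 CPM in shLuc libraries.

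Endothelial markers were scarce in both controls. Of 14 genes, 5 were tested, of which 1 passed the test as higher in GFP libraries, 3 as lower and 1 did not pass. Over all tested genes, 33.7% were called higher and 33.5% lower. Cdh5, Tie1, Emcn and Erg, which define endothelium, had at most 4 counts over either group. Pecam1 and Vwf, further markers of endothelium, had 11 and 41 counts over the GFP libraries, against 60 and 93 over the shLuc libraries, and both calls were lost with all 12 libraries in one fit (adjusted p = 0.178 and 0.193). Pecam1 entered the test through its shLuc level, so the counts of calls describe the tested members alone. Kdr, a VEGF receptor, had 141, 137 and 134 CPM in the GFP libraries, against 15.2, 15.1 and 17.1 CPM in the shLuc libraries (log2 fold change 3.12, SE 0.06, adjusted p = 4.6e-33). Slco1a4, an organic anion transporter, had 72.4, 74.7 and 76.6 CPM in the GFP libraries, against 576, 566 and 618 CPM in the shLuc libraries (log2 fold change -2.98). The summed level of the list, most of it from Kdr and Slco1a4, was 213 to 218 CPM in the GFP libraries, against 586 to 641 CPM in the shLuc libraries.

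Contractile and collagen genes of mural cells, fibroblasts and meninges were mostly higher in the GFP libraries. Of 21 genes, 10 were tested, of which 7 passed the test as higher in GFP libraries, 2 as lower and 1 did not pass (median 1.06), with 4 higher in a fit of all 12 libraries. Higher calls made up 33.7% of all tested genes. Col1a2, a chain of type I collagen, had 404, 389 and 391 CPM in the GFP libraries, against 83.5, 81.5 and 82.2 CPM in the shLuc libraries (log2 fold change 2.26, SE 0.03, adjusted p = 2.7e-35). Acta2, smooth muscle actin, had 518, 527 and 507 CPM in the GFP libraries, against 161, 157 and 154 CPM in the shLuc libraries (log2 fold change 1.72). Col1a1, the partner chain of Col1a2, had 2.20, 2.53 and 2.10 CPM in the GFP libraries, against 0.626, 1.22 and 1.16 CPM in the shLuc libraries (log2 fold change 1.16), a call lost in the fit of all 12 libraries (adjusted p = 0.346). Pdgfrb and Notch3, receptors of pericytes, were lower (log2 fold changes -1.16 and -0.50). Dcn, Des, Kcnj8 and Abcc9 were under the level for testing in both controls. The summed level of the list, most of it from Acta2 and Col1a2, was 1028 to 1049.9 CPM in the GFP libraries, against 406 to 419 CPM in the shLuc libraries.

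Other tissue left little signal. Of 8 choroid plexus genes 2 were tested, Folr1, which was lower (log2 fold change -0.58), and Aqp1, which did not pass. Ttr, the defining transcript of choroid plexus, stood at 0.306, 0.286 and 0.341 CPM in the GFP libraries, against 0.188, 0.106 and 0.174 CPM in the shLuc libraries. None of the genes for blood, lung and liver were tested, and those in both tables summed to at most 0.334 CPM in a GFP library and 0.584 CPM in a shLuc library.

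**Figure D4:**
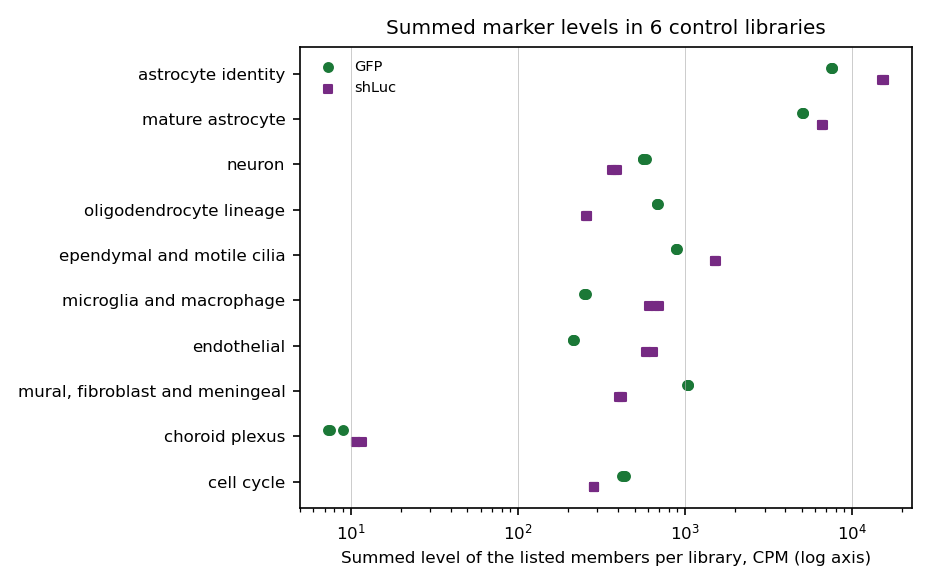
Summed CPM of the listed markers of 9 cell types or states, and of the cell cycle list, in each of the 3 GFP libraries (circles) and 3 shLuc libraries (squares), on a log axis. The neuron, oligodendrocyte lineage, mural and cell cycle sums are higher in GFP libraries, and the astrocyte, cilia, microglia, endothelial and choroid plexus sums are higher in shLuc libraries.

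Cell cycle genes were higher in the GFP libraries. All 30 were tested, of which 26 passed the test as higher in GFP libraries, 2 as lower and 2 did not pass, with 18 at least 2-fold higher and 0 at least 2-fold lower (median 1.12). Of all tested genes, 33.7% were called higher and 9.53% at least 2-fold higher. Mki67, the proliferation antigen Ki-67, had 11.6, 11.2 and 11.1 CPM in the GFP libraries, against 2.57, 2.71 and 2.72 CPM in the shLuc libraries (log2 fold change 2.08, SE 0.14, adjusted p = 1.3e-15). Top2a, the topoisomerase of dividing cells, had 29.1, 31.1 and 30.3 CPM in the GFP libraries, against 10.1, 12.8 and 10.3 CPM in the shLuc libraries (log2 fold change 1.44). Ccna2, cyclin A2, had 9.35, 10.3 and 9.06 CPM in the GFP libraries, against 2.00, 3.08 and 1.56 CPM in the shLuc libraries (log2 fold change 2.09). No GFP library overlapped the shLuc libraries in these genes.

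The size of the difference varied within the list. Ube2c, Aurkb and Cenpf, which act in mitosis, had log2 fold changes of 2.43, 2.33 and 2.12, and Pcna, Mcm6 and Mcm3, which act in DNA replication, of 0.45, 0.32 and 0.26. The call for Mcm3 was lost without shLuc library 1 (adjusted p = 0.121), among other alternatives. The 2 lower members, Mcm2 and Kif11, had log2 fold changes of -0.24 and -0.23, the second lost with all 12 libraries in one fit (adjusted p = 0.234). Of 19 genes of p53 and cell cycle arrest, 5 passed the test as higher in GFP libraries, 13 as lower and 1 did not pass (median -0.32), with 3 higher in a fit of all 12 libraries. Lower calls made up 33.5% of all tested genes. Cdkn1a, the inhibitor p21, had 517, 536 and 515 CPM in the GFP libraries, against 649, 658 and 647 CPM in the shLuc libraries (log2 fold change -0.32), a call lost with all 12 libraries in one fit (adjusted p = 0.0856). Cdkn2b and Cdkn2a, neighbours on chromosome 4, moved apart, with log2 fold changes of -1.52 and 0.85.

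Genes that mark reactive astrocytes, the state that follows injury or inflammation, were lower in the GFP libraries. Of 12 pan-reactive genes, 11 were tested, of which 1 passed the test as higher in GFP libraries, 9 as lower and 1 did not pass (median -1.30). Over all tested genes, 33.5% were called lower. Serpina3n, a secreted protease inhibitor, had 28.1, 25.9 and 25.1 CPM in the GFP libraries, against 171, 181 and 168 CPM in the shLuc libraries (log2 fold change -2.72, SE 0.05, adjusted p = 4.6e-33). Cp, the ferroxidase ceruloplasmin, had 81.2, 80.7 and 76.9 CPM in the GFP libraries, against 428, 423 and 427 CPM in the shLuc libraries (log2 fold change -2.42). Osmr, the oncostatin M receptor, had 22.3, 20.7 and 21.6 CPM in the GFP libraries, against 112, 113 and 113 CPM in the shLuc libraries (log2 fold change -2.39). Vim, the filament vimentin, moved little (log2 fold change -0.37), and Hspb1 was higher (log2 fold change 0.60).

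The counts for the A1 and A2 states, given next, stand beside 33.7% higher and 33.5% lower of all tested genes. Of the 12 genes linked to the A1 state, 1 passed the test as higher in GFP libraries, 9 as lower and 2 did not pass (median -0.67), and C3, described above, was the lowest. Serping1, the C1 inhibitor, had a log2 fold change of -1.81 and H2-T23 of -2.05, while Amigo2 was higher (1.06). Of 11 tested genes linked to the A2 state, 5 passed the test as higher in GFP libraries, 6 as lower and 0 did not pass (median -0.21). Cd109 was the highest, at 698, 686 and 678 CPM in the GFP libraries, against 174, 166 and 181 CPM in the shLuc libraries (log2 fold change 1.99), and Sphk1 the lowest (log2 fold change -3.19). The microglia list, some of whose cells also make C3, moved in the same direction as these lists, at 250.1 to 258 CPM in the GFP libraries, against 609 to 700.3 CPM in the shLuc libraries, and its part in them was not tested.

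Interferon-stimulated genes, the antiviral program switched on when interferons bind their receptors, were lower in the GFP libraries. All 30 were tested, of which 2 passed the test as higher in GFP libraries, 27 as lower and 1 did not pass, with 17 at least 2-fold lower and 1 at least 2-fold higher (median -1.12), against 33.5% lower and 9.37% at least 2-fold lower of all tested genes. Their summed level was 1020.1 to 1037 CPM in the GFP libraries, against 1709.7 to 1743 CPM in the shLuc libraries. Ifit1, which binds foreign RNA, had 17.7, 16.9 and 15.8 CPM in the GFP libraries, against 74.3, 73.0 and 77.8 CPM in the shLuc libraries (log2 fold change -2.16, SE 0.06, adjusted p = 1.0e-26). Isg15, a ubiquitin-like modifier, had 6.64, 7.02 and 8.58 CPM in the GFP libraries, against 32.2, 32.0 and 32.2 CPM in the shLuc libraries (log2 fold change -2.12). Ifit3, a partner of Ifit1, had 110.4, 103 and 101 CPM in the GFP libraries, against 293, 277 and 279 CPM in the shLuc libraries (log2 fold change -1.43). Ifit3 has a close copy, so reads of both copies may be split. The 3 GFP libraries were below all shLuc libraries in these genes.

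Factors of the pathway had log2 fold changes of -0.67 for Stat2, -0.80 for Irf9 and -1.60 for Irf7. Ifitm3, which blocks viral entry, went the other way, at 203, 199 and 202 CPM in the GFP libraries, against 165, 159 and 150.4 CPM in the shLuc libraries (log2 fold change 0.35, SE 0.03, adjusted p = 4.2e-11), as did Ifi27l2a at low level (log2 fold change 1.53), a call lost with all 12 libraries in one fit (adjusted p = 0.0656). Across the study, the mean log2(CPM + 1) of the list was 7.15, 3.98, 5.52 and 4.93 in GADD45G, GFP, shGADD45G and shLuc libraries, in that order, so GFP had the lowest level and GADD45G, from the same experiment, the highest. The virus of each group cannot be told apart from the group in these values.

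Promoters of 3 of these genes are shown because they hold the core of the interferon response element and belong to members that moved in both directions. Sequences run from 250 bases before to 50 after the start of the gene (RefSeq, GRCm38.p6), with matches to GAAA, any 2 bases and GAAA, read on either strand, in capitals, where overlapping matches run together. Isg15 lies at chr4:156200769-156201068 on the minus strand with 3 matches, Ifit1 at chr19:34640639-34640938 on the plus strand with 2 and Ifitm3 at chr7:141010695-141010994 on the minus strand with 2.
Isg15: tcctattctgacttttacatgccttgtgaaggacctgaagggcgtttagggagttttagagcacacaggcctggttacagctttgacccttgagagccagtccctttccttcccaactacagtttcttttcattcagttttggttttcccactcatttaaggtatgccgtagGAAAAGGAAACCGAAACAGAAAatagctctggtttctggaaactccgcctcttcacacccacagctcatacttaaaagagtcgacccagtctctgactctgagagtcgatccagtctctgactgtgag
Ifit1: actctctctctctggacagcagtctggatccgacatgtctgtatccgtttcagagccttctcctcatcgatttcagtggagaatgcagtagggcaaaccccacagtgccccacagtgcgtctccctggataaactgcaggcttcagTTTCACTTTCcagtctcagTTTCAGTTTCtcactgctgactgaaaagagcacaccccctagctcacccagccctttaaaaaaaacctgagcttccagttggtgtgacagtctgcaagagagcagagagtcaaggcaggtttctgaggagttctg
Ifitm3: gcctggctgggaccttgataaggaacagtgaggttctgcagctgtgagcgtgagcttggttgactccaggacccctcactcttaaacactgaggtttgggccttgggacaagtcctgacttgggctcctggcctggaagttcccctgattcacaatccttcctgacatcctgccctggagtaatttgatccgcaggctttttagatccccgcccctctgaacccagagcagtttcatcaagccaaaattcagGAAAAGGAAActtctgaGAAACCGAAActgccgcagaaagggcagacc

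Of 20 list members with a promoter in the table, 12 held the motif, against 3.99% of 27025 genes with a promoter there. Isg15 and Ifit1 were lower in GFP libraries and Ifitm3 was higher, so the letters stood in front of genes of both directions. A match describes the sequence and is not evidence of binding. For the cilia list, the letters GTTNCC, any 2 bases and GGNAAC on either strand, a core of the X-box read by RFX factors, were found in 1 of 20 members with a promoter in the table, Pifo, against 0.529% of those 27025 genes.

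Cytokines and regulators of NF-kB were also mostly lower in the GFP libraries. Of 20 genes, 18 were tested, of which 2 passed the test as higher in GFP libraries, 15 as lower and 1 did not pass (median -1.001). Lower calls made up 33.5% of all tested genes. Icam1, an adhesion receptor induced by NF-kB, had 21.96, 20.005 and 19.0 CPM in the GFP libraries, against 87.8, 89.6 and 80.4 CPM in the shLuc libraries (log2 fold change -2.08, SE 0.06, adjusted p = 2.6e-26). Ccl2, a chemokine for monocytes, had 1.12, 1.24 and 1.85 CPM in the GFP libraries, against 5.44, 8.45 and 9.26 CPM in the shLuc libraries (log2 fold change -2.46). Relb and Nfkb2, of the non-canonical branch, had log2 fold changes of -1.26 and -1.04. Against them, Cxcl5, a chemokine for neutrophils, had 60.6, 67.3 and 63.9 CPM in the GFP libraries, against 4.38, 5.74 and 4.80 CPM in the shLuc libraries (log2 fold change 3.67), and Traf1, an adaptor of TNF receptors, had 442, 455 and 439 CPM in the GFP libraries, against 139.9, 138 and 152 CPM in the shLuc libraries (log2 fold change 1.64).

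The extracellular matrix differed in its parts and hardly in its median. Of 29 genes, 26 were tested, of which 12 passed the test as higher in GFP libraries, 12 as lower and 2 did not pass (median -0.03, and down to -0.15 without GFP library 3, -0.12 without GFP library 1, -0.07 without shLuc library 1 and -0.06 without shLuc library 3). For comparison, 33.7% of all tested genes were called higher and 33.5% lower. Higher in GFP libraries were basement membrane components besides Nid1 and Lama1, with log2 fold changes of 3.02 for Lama4, 1.80 for Lama2, 1.68 for Lamc1 and 1.41 for Nid2. Fn1, fibronectin, had 239, 225 and 236 CPM in the GFP libraries, against 66.7, 74.4 and 74.6 CPM in the shLuc libraries (log2 fold change 1.69). Tnc and Bcan, matrix proteins found in brain tissue, were lower. Tnc, tenascin C, had 34.0, 34.1 and 35.3 CPM in the GFP libraries, against 229, 220.3 and 220.1 CPM in the shLuc libraries (log2 fold change -2.69, SE 0.04, adjusted p = 6.9e-35), and Bcan, the proteoglycan brevican, had 21.9, 25.3 and 25.1 CPM in the GFP libraries, against 102, 107 and 109 CPM in the shLuc libraries (log2 fold change -2.14). Basement membrane collagens ran against the laminins, with log2 fold changes of -0.76 for Col4a1 and -0.33 for Col4a2, the second lost with all 12 libraries in one fit (adjusted p = 0.198).

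Secreted growth factors were mixed. Of 23 genes, 22 were tested, of which 8 passed the test as higher in GFP libraries, 11 as lower and 3 did not pass (median -0.24, and -0.12 without GFP library 3), with 4 higher in a fit of all 12 libraries. The share of higher calls was near that of all tested genes (33.7%), and the share of lower calls was above that of all tested genes (33.5%). Ptn, pleiotrophin, a factor of radial glia and developing neurites, had 1272, 1273 and 1266 CPM in the GFP libraries, against 54.9, 44.9 and 46.8 CPM in the shLuc libraries (log2 fold change 4.70, SE 0.04, adjusted p = 3.3e-42). In the treated cultures Ptn averaged 18.1 ± 1.92 CPM in GADD45G libraries and 38.7 ± 7.58 CPM in shGADD45G libraries (SD, n = 3 each). Ntf3, neurotrophin 3, had 14.05, 13.03 and 14.1 CPM in the GFP libraries, against 5.76, 4.62 and 4.57 CPM in the shLuc libraries (log2 fold change 1.47). Fgf1 had 61.6, 61.9 and 57.2 CPM in the GFP libraries, against 229.5, 213 and 223 CPM in the shLuc libraries (log2 fold change -1.88). Bmp4 and Bmp2 were also lower, with log2 fold changes of -2.75 and -2.27.

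Signalling pathways that pattern the forebrain differed at several levels. Hedgehog signalling specifies ventral fates, and Gli1 and Ptch1 are its direct targets. Of 9 tested genes of the pathway, 6 passed the test as higher in GFP libraries, 3 as lower and 0 did not pass (median 0.78). For comparison, 33.7% of all tested genes were called higher and 33.5% lower. Gli1 had 7.30, 9.21 and 9.65 CPM in the GFP libraries, against 1.56, 1.38 and 1.16 CPM in the shLuc libraries (log2 fold change 2.67, SE 0.18, adjusted p = 3.4e-15) and Ptch1 had 333, 315 and 328 CPM in the GFP libraries, against 142, 136 and 132 CPM in the shLuc libraries (log2 fold change 1.25). Both were higher in every GFP library. The co-receptors were split, with log2 fold changes of 0.65 for Boc, -1.80 for Cdon and -2.67 for Gas1.

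Of 11 tested BMP target genes, 0 passed the test as higher in GFP libraries, 8 as lower and 3 did not pass (median -0.60). Lower calls made up 33.5% of all tested genes. Id1, a general target, had 18.2, 19.2 and 19.3 CPM in the GFP libraries, against 39.8, 46.3 and 37.7 CPM in the shLuc libraries (log2 fold change -1.13), and the antagonist Nog had 4.65, 4.30 and 4.92 CPM in the GFP libraries, against 19.3, 20.8 and 21.1 CPM in the shLuc libraries (log2 fold change -2.14), whereas Id3 did not pass. Of 9 tested Wnt genes, 6 passed the test as higher in GFP libraries, 1 as lower and 2 did not pass (median 0.48). Higher calls made up 33.7% of all tested genes. Axin2, a direct target, had 73.3, 77.7 and 71.7 CPM in the GFP libraries, against 30.9, 35.8 and 30.3 CPM in the shLuc libraries (log2 fold change 1.20), and Dkk3 and Wnt7b had log2 fold changes of 2.09 and 1.78. Of 11 tested Notch genes, 5 passed the test as higher in GFP libraries, 3 as lower and 3 did not pass (median 0.07, and 0.12 to 0.16 without GFP library 1 or any one shLuc library), with 3 higher without GFP library 3 and in a fit of all 12 libraries. These Notch counts stand beside 33.7% higher and 33.5% lower of all tested genes. The ligand Jag1 was higher (log2 fold change 1.78) and the receptor Notch1 lower (-0.66), as was the target Hey1 (-0.87), while Hey2 was higher (1.85).

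Cholesterol synthesis, which astrocytes run for neurons, was nearly level. Of 19 genes, 7 passed the test as higher in GFP libraries, 4 as lower and 8 did not pass, none at 2-fold or more in either direction, and the median was 0.06, with 0.04 without GFP library 2, 0.11 without shLuc library 2 and 0.02 without shLuc library 3. The 11 called members compare with 67.2% of all tested genes, and 1 was lower in a fit of all 12 libraries. Sqle, the squalene epoxidase, had 144, 141 and 139 CPM in the GFP libraries, against 169, 171 and 178 CPM in the shLuc libraries (log2 fold change -0.29, SE 0.03, adjusted p = 3.7e-09). Dhcr7, which makes cholesterol from its last precursor on one branch, had 32.4, 33.3 and 30.1 CPM in the GFP libraries, against 22.3, 22.8 and 23.8 CPM in the shLuc libraries (log2 fold change 0.47). The groups did not overlap in either gene, and the steps between them were small. Mvd, an enzyme of the mevalonate steps, did not pass (log2 fold change 0.06).

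**Figure D5:**
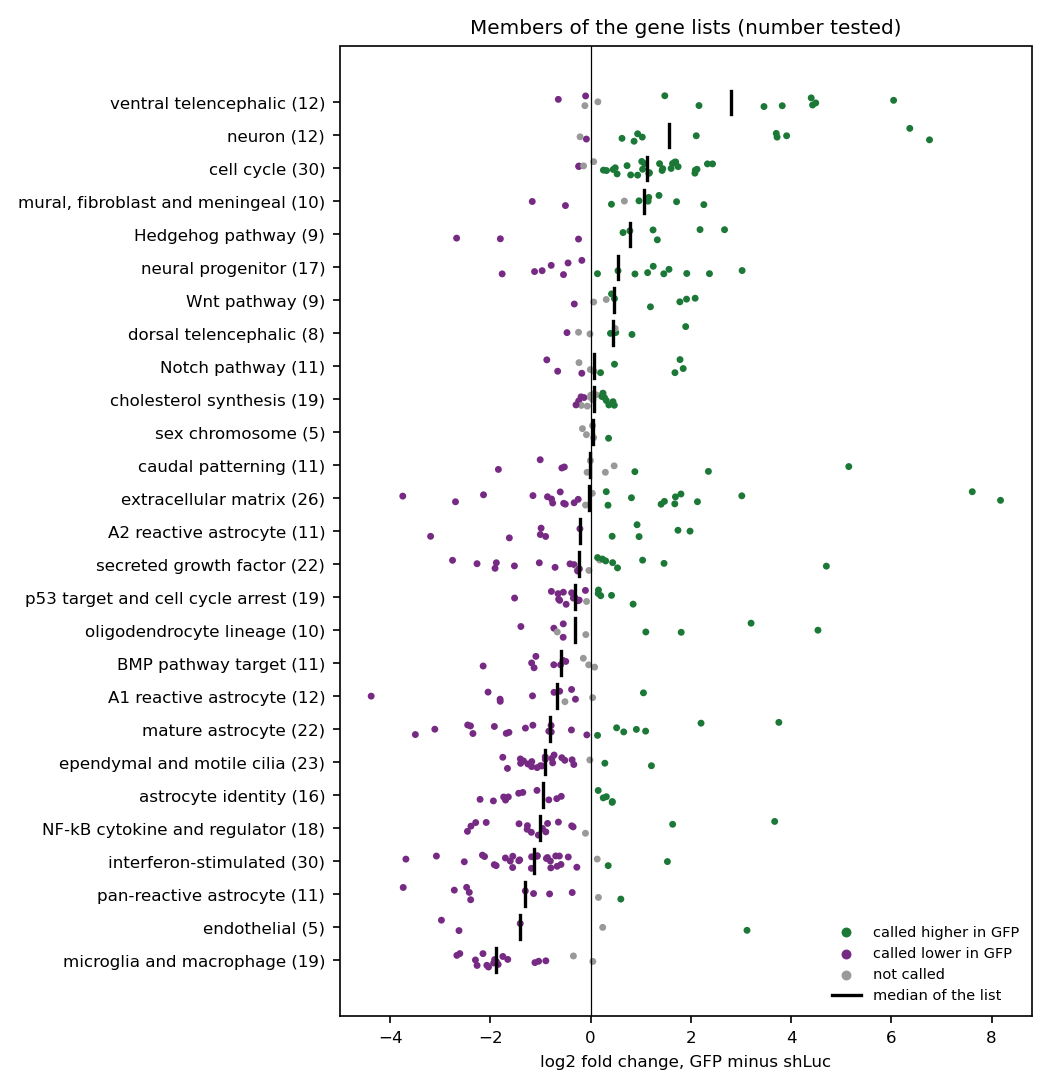
Log2 fold change, GFP minus shLuc, of the tested members of each list with at least 5 tested members, with one point per gene and a bar at the list's median. Medians run from 2.81 for the ventral telencephalic list to -1.88 for the microglia list, and Gad2 and Gbx2, with 2 and 3 shLuc counts, are drawn at their fitted values.

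Both controls contained cells of both sexes. Xist, made by female cells, had 393, 349 and 367 CPM in the GFP libraries, against 270.3, 283 and 311 CPM in the shLuc libraries (log2 fold change 0.36, SE 0.04, adjusted p = 3.6e-10). The Y-linked genes Kdm5d, Ddx3y, Uty and Eif2s3y were present in all 6 libraries and did not pass, with log2 fold changes of -0.08, 0.04, 0.06 and -0.16 and SEs of 0.07 to 0.10. Their groups overlapped.

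Gadd45g itself, the gene the study altered in its other groups, differed little between the controls. It had 121, 133 and 134 CPM in the GFP libraries, against 142, 153 and 131 CPM in the shLuc libraries, and the groups overlapped (log2 fold change -0.13, SE 0.04, adjusted p = 0.00755). The call was lost without GFP library 1 (adjusted p = 0.0798), without shLuc library 2 (adjusted p = 0.118) and with all 12 libraries in one fit (adjusted p = 0.590). Of its relatives, Gadd45a had 8.99, 10.8 and 9.84 CPM in the GFP libraries, against 22.97, 22.05 and 23.5 CPM in the shLuc libraries (log2 fold change -1.21, SE 0.09, adjusted p = 3.9e-14), and Gadd45b had a log2 fold change of 0.17 with an adjusted p = 0.0395 that reached 0.148 among the alternatives.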

How the data were processed

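RNA of 12 libraries had been sequenced with a stranded kit, per the labels. The submitters' processing notes name STAR 2.5, HTSeq 0.6.1, DESeq2 and mm10, without parameters. Whether counting used strand is not stated in the sources used. The authors deposited 1 table per experiment with whole read counts per gene. The deposited signal (normalised) columns, FPKM values, log2 fold changes and p-values of the authors were not used here. The shCtrl columns were read as shLuc, since the knockdown table has no other control.

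The tables listed 25923 and 24509 genes. The 22845 in both, which held 99.986% or more of each control library's counts, were joined and scaled together with TMM factors. edgeR 4.0.16 (R 4.3.3) was run on the 3 GFP and 3 shLuc libraries with filterByExpr and its quasi-likelihood test, and p-values were Benjamini-Hochberg adjusted over all 15357 tested genes at 0.05. Genes with 0 counts in a group got a bound at a floor of 3 counts, and those with 1 to 3 a ratio with a 95% exact interval, both for counting error only. The steps were tested on simulated data.

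Members, lists and tests were chosen with earlier results of these data known. Named were the 12 protein-coding genes per direction with the largest change among called genes of at least 5 CPM in the higher group without overlap, the first 3 and up to 6 further members of each list by p, members that went against their list or defined a cell type, and Gadd45g. Alternatives were RLE and upper quartile factors, DESeq2 1.42.0, limma-voom (limma 3.58.1), no filter, a filter of 1 CPM in 3 libraries, genes in either table, a replicate block, all 12 libraries and each library left out. Values of some list members are not reported here.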

Additional observations from a re-analysis of the deposited data

Results flagged for a closer look

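Genes listed in 1 table alone stood outside the comparison. Of those listed only for the overexpression experiment, 12 had at least 60 counts over the GFP libraries, and 0 of those listed only for the knockdown experiment had as many over shLuc. They were F2rl2 (391 counts), Htr5a (391), Dlx6os1 (300), Mobp (173), Zfp985 (171), Eomes (154), Snap25 (152), Dlx5 (141), Mir124a-1hg (131), Gm9954 (106), Drd3 (86) and Slc22a14 (68). Dlx5 and Dlx6os1 belong to the ventral forebrain cluster, Eomes marks dorsal intermediate progenitors, Snap25 is a synaptic protein and Mobp a myelin protein. Their shLuc values are not listed, which is not the same as a measured 0, so no fold is given.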

How the results depend on the processing

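The 10315 calls became 9509 to 10735 with other factors, tests, filters or joins, 9809 to 10160 without one library, 10245 with the replicate number as a block (5146 higher, 5099 lower) and 7891 with all 12 libraries in one fit. The numbers do not pair the libraries, since deviations of same-numbered libraries correlated at 0.0075, 0.0158 and -0.0094. The block called fewer genes. The fit of all 12 libraries includes the treated groups, whose replicates spread more than those of the controls. The text draws its genes from 433 tested members, 382 of them called. Over 15 settings they gave 6479 values. Of these, 6336 kept their side of the threshold and, where called, their direction. The call was lost in 124 (in 54 genes) and gained in 19 (in 9 genes), and 0 of the called ones reversed. The cause was not tested. Counts of list members stayed within 1.5 times in 856 cases and moved further in 44, most of them counts of 1 or 2 genes.

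Genes at or near 0 in shLuc numbered 47, and by thresholds chosen after seeing the data 82 at 30 counts, 25 at 120 counts and 59 with genes of either table. They numbered 29 to 77 without one library. Near 0 in GFP there were 0, then 13 at 30 counts and 0 to 5 without one library. Fewer libraries lower a group's summed counts, which the fixed limits read. Genes such as Hes5 were too low for a test at this depth.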
